A study of Bos taurus with 12 samples.

Results

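Oxidative phosphorylation subunit genes encode the nuclear part of the mitochondrial respiratory chain and of ATP synthase. Members were the genes whose symbol in the platform annotation began with NDUFA, NDUFB, NDUFC, NDUFS, NDUFV, UQCR, COX4, COX5, COX6, COX7, COX8 or ATP5, or was SDHA, SDHB, SDHC, SDHD or CYC1, without the NDUFAF assembly factors. This gave 81 of the 9155 genes named on the array. There were 36 genes of complex I, 4 of complex II, 9 of complex III, 15 of complex IV (NDUFA4 and its paralog NDUFA4L2 counted here) and 17 of ATP synthase. Each gene was represented by its probe set with the highest mean signal over the 12 arrays, and all 81 symbols were current RefSeq symbols.

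Endometrium of Simmental heifers had been collected 3 or 7 days into the cycle, and its transcript abundance was measured on Affymetrix bovine arrays. The endometrium was classed as receptive or non-receptive by whether a pregnancy followed transfer of an embryo produced in vivo. Both classes on both days, 4 groups in all, were each represented by 3 RNA pools, with 1 array per pool, and no treatment or age is given in the labels. The number of heifers in a pool and whether pools came from separate heifers are not given in the sources used here, so p-values measure only the spread between pools, which may be technical.

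The respiratory chain passes electrons from NADH (complex I) and succinate (complex II) over ubiquinone to complex III, then over cytochrome c to complex IV and oxygen. Complexes I, III and IV pump protons across the inner mitochondrial membrane, and ATP synthase uses the returning protons to make ATP. The endometrium passes from low to rising progesterone over these days of the cycle and builds up its secretory glands. The subunits encoded by mitochondrial DNA are not among the members.

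Epithelial markers were abundant in all pools, with a summed signal of the 6 markers between 14.29 and 14.76 on the log2 scale, and none of the 6 passed the test between days. The summed signals of the leukocyte and squamous epithelial markers were higher in every day 7 pool than in any day 3 pool. These sums were taken on the linear scale, so the brightest markers weigh most in them. The summed signal of 7 leukocyte markers was 10.33 to 11.08 on day 3 and 11.73 to 13.92 on day 7. Of these markers 3 were called higher and 2 lower, so the list did not move as a whole. The sum of 3 squamous markers was 6.61 to 7.61 on day 3 and 8.56 to 10.64 on day 7, with all 3 called higher. Over all probe sets 4.76% were called higher and 9.44% lower between days. The stromal sum (7 markers) was 11.42 to 14.33 on day 3 and 11.15 to 12.84 on day 7, where 1 marker was called lower. Of 4 endothelial markers 1 was called lower, and of 3 red blood cell markers 1 was called higher and 1 lower. No marker was at 0 in any pool. The part of cell composition in the results below was not tested, and in tissue RNA fewer cells of a type and less RNA per cell cannot be told apart. The arrays had medians between 6.64 and 6.76, at 6.68 to 6.76 on day 3 and 6.64 to 6.68 on day 7. Their scales were thus close but slightly lower on day 7, and how the arrays were scaled is not given.

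Most subunit genes had a slightly higher mean signal on day 7 than on day 3, and few of them passed the test singly. Averaged over receptivity, 68 of the 81 genes had a higher mean on day 7 and 13 a lower one. Their median difference was 0.17 on the log2 scale, beside -0.05 over all 24016 probe sets and -0.02 over the named genes. Among the 69 members with a mean signal of at least 10 the median was 0.18, whereas it was -0.01 over the 2162 probe sets of that signal. The differences of the 81 genes ran from -0.39 to 0.70, with the middle part between 0.04 and 0.27 (quartiles).

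At an adjusted p under 0.05 (limma, Benjamini-Hochberg over all probe sets), 8 of the 81 members differed between days. This is 9.88% of the members, below the 14.2% of all probe sets that passed. The direction was different: 7 members (8.64%) were called higher on day 7, where 4.76% of all probe sets were, and 1 member (1.23%) was called lower, where 9.44% of all probe sets were. Of the 9155 named genes, 1 probe set each, 619 were called higher and 942 lower. Of the 2162 probe sets with a mean signal of at least 10, 147 were called higher and 272 lower, beside 6 and 1 of the 69 such members. Among the named genes and among these bright probe sets, the share called higher lay between those of all probe sets and of the members. At an unadjusted p under 0.05, 29 members (35.8%) passed, 28 of them higher, beside 30.8% of all probe sets. At that threshold 1386 named genes were higher and 1787 lower, as were 345 and 484 of the 2162 probe sets. In 5 members (6.17%) every day 7 pool lay above every day 3 pool, as in 2.55% of all probe sets, and in 1 member (1.23%) every day 7 pool lay below, as in 5.16%. The share of members that passed was thus not above the background, and the calls among them lay mostly on the higher side. Single pools decided how many passed. The count was 2 without pool 1 and 4 without pool 3 of non-receptive day 3, 5 without any 1 of the receptive day 3 pools, 4, 20 and 4 without pools 1, 2 and 3 of non-receptive day 7, and 4 without pool 3 of receptive day 7 endometrium.

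**Figure D1:**
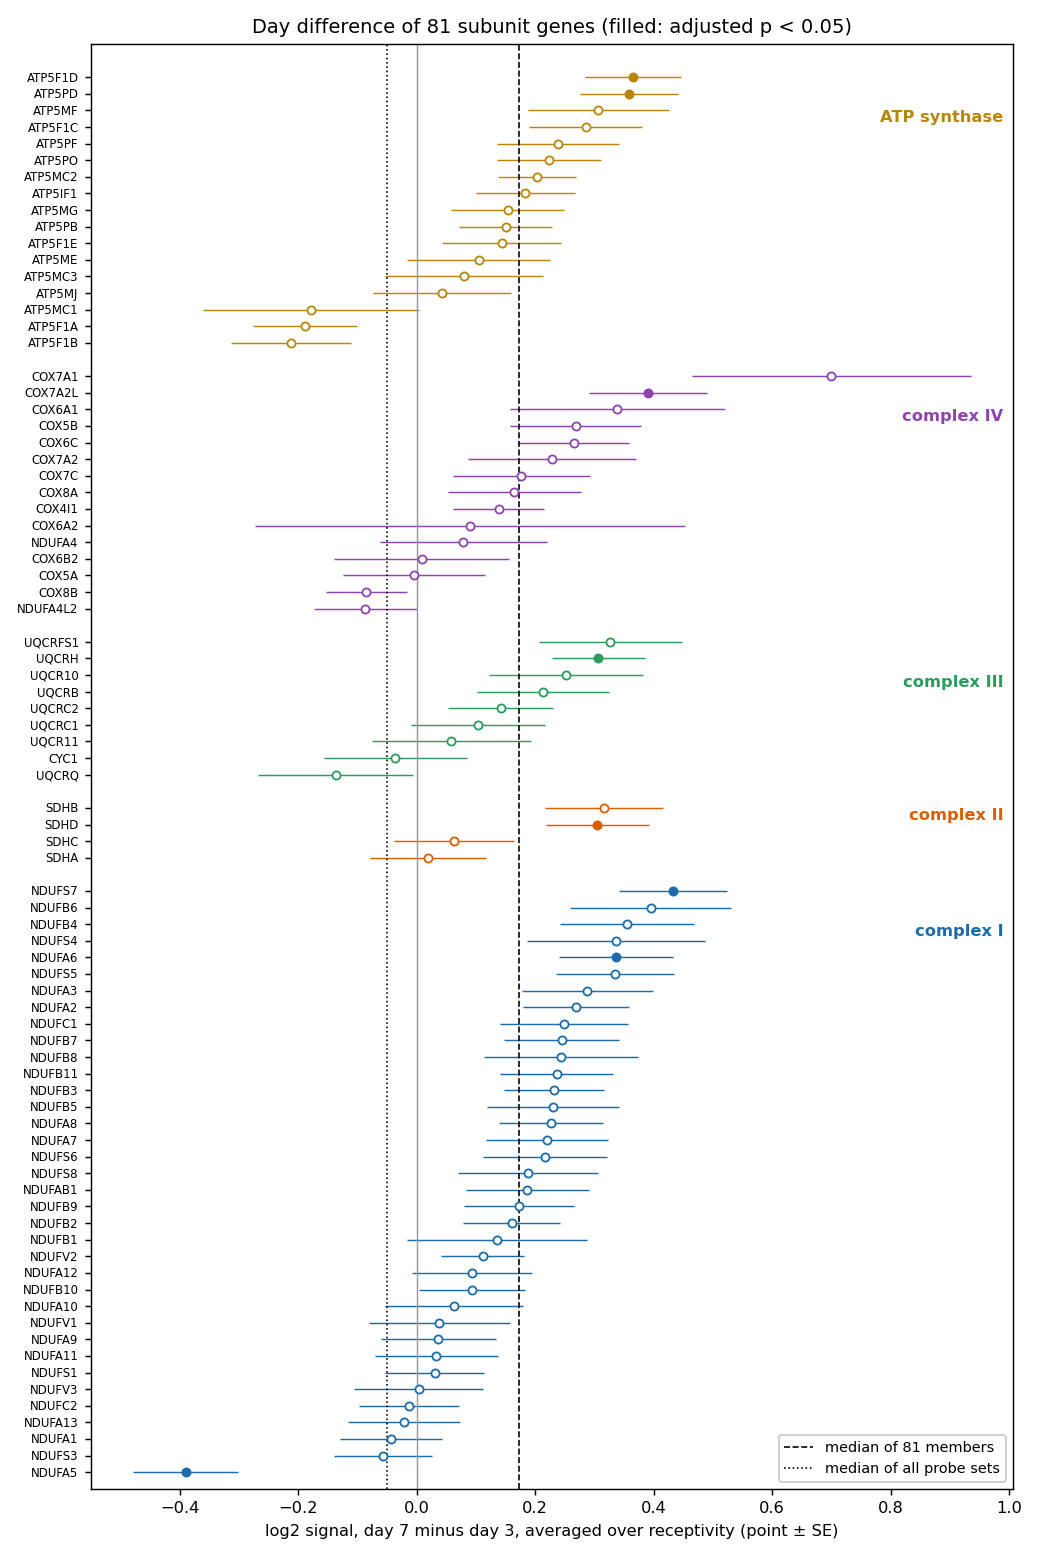
Difference in log2 signal between day 7 and day 3, averaged over receptive and non-receptive endometrium, for each of the 81 genes by complex; points are limma estimates, bars their standard errors, and filled points passed an adjusted p under 0.05. Most points of every complex lie to the right of 0, around a median of 0.17, and NDUFA5 of complex I lies alone at -0.39.

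All 5 complexes had a positive median. It was 0.19 in complex I (31 of 36 genes positive), 0.18 in complex II (4 of 4), 0.14 in complex III (7 of 9), 0.17 in complex IV (12 of 15) and 0.15 in ATP synthase (14 of 17). The calls were spread over them, with 2 higher and 1 lower in complex I, 1 higher each in complexes II, III and IV, and 2 higher in ATP synthase. No test was made between complexes.

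NDUFS7, a core subunit of complex I that holds the iron-sulfur cluster next to the ubiquinone site, had the smallest p of all members. Its log2 signals in pools 1, 2 and 3 were 9.32, 9.5 and 9.53 in non-receptive and 9.64, 9.52 and 9.55 in receptive endometrium on day 3. On day 7 they were 9.84, 9.70 and 10.18 in non-receptive and 9.97, 9.96 and 10.01 in receptive endometrium. All pools of day 7 were above all pools of day 3. The mean rose from 9.51 ± 0.11 (SD, n = 6 pools) to 9.94 ± 0.16 (SD, n = 6), a difference of 0.43 ± 0.09 (SE, limma adjusted p = 0.014). It was the only member of the 8 that passed in every alternative run, the 12 fits without 1 pool included (highest adjusted p = 0.044).

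NDUFA6, an accessory subunit of complex I that binds the mitochondrial acyl carrier protein, rose by less certain margins. It measured 10.64, 10.79 and 10.89 in the non-receptive and 11.03, 10.88 and 10.93 in the receptive pools of day 3. By day 7 the values were 11.28, 10.87 and 11.35 in the non-receptive and 11.27, 11.17 and 11.24 in the receptive pools. Pool 2 of non-receptive day 7 endometrium lay within the day 3 range and the other pools above it. The difference was 0.34 ± 0.10 (SE, adjusted p = 0.044), and it passed in 1 of the 12 fits without 1 pool.

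NDUFA5, an accessory subunit of the peripheral arm of complex I, was the member that fell. It measured 11.01, 10.89 and 10.89 in the non-receptive and 11.00, 10.85 and 10.82 in the receptive pools of day 3. The day 7 values were 10.25, 10.28 and 10.64 (non-receptive) and 10.55, 10.76 and 10.64 (receptive). The days did not overlap, and the difference was -0.39 ± 0.09 (SE, adjusted p = 0.020). A further, dimmer probe set of this gene had the opposite sign, at 8.38 ± 0.15 on day 3 and 8.66 ± 0.22 on day 7 (SD, n = 6 each; difference 0.28, adjusted p = 0.14). With the mean of its 3 probe sets the difference of NDUFA5 was -0.06 (adjusted p = 0.62), so its direction rests on the probe set chosen.

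Other accessory subunits of complex I stood near the threshold without passing it. NDUFS5 and NDUFA2 differed by 0.34 (adjusted p = 0.051) and 0.27 (0.073), NDUFB4 by 0.36 (0.063) and NDUFB6 by 0.40 (0.080). The core subunits of the NADH-binding module, NDUFV1 and NDUFS1, differed by 0.04 ± 0.12 and 0.03 ± 0.08 (SE), and NDUFV2 by 0.11 ± 0.07. NDUFS7 was thus the 1 core subunit among the 3 called genes of complex I.

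In complex II, the membrane anchor SDHD was called higher. It measured 11.31, 11.36 and 11.43 in the non-receptive and 11.63, 11.49 and 11.59 in the receptive pools of day 3. It then measured 11.90, 11.88 and 11.76 in the non-receptive and 11.78, 11.44 and 11.88 in the receptive pools of day 7. Receptive pool 2 of day 7 was within the day 3 range and the 5 others were above it. The difference was 0.31 ± 0.09 (SE, adjusted p = 0.044, passing in 1 of the 12 fits without 1 pool). The iron-sulfur subunit SDHB differed by 0.32 ± 0.10 and missed the threshold (adjusted p = 0.061). The flavoprotein SDHA, which oxidises succinate, and the second anchor SDHC differed by 0.02 ± 0.10 and 0.06 ± 0.10 (SE, adjusted p = 0.92 and 0.72).

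In complex III, UQCRH, the hinge protein between cytochrome c1 and cytochrome c, was higher in all day 7 pools. It measured 11.56, 11.70 and 11.60 in the non-receptive and 11.82, 11.58 and 11.79 in the receptive pools of day 3. By day 7 the values were 11.97, 11.89 and 12.13 in the non-receptive and 11.88, 11.94 and 12.08 in the receptive pools. The difference was 0.31 ± 0.08 (SE, adjusted p = 0.031, passing in 4 of the 12 fits without 1 pool). The Rieske iron-sulfur protein UQCRFS1 differed by 0.33 ± 0.12 (adjusted p = 0.099), and cytochrome c1 itself, CYC1, by -0.04 ± 0.12 (adjusted p = 0.87).

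In complex IV the called gene was COX7A2L, which helps to join complexes III and IV into a supercomplex and is not a core subunit of the enzyme. It measured 10.25, 10.43 and 10.30 in the non-receptive and 10.35, 10.41 and 10.39 in the receptive pools of day 3. The day 7 values were 10.88, 10.54 and 10.94 (non-receptive) and 10.57, 10.59 and 10.95 (receptive). The days did not overlap, although 3 of the day 7 pools lay within 0.2 of the highest day 3 pool. The difference was 0.39 ± 0.10 (SE, adjusted p = 0.030, passing in 4 of the 12 fits without 1 pool). The ubiquitous subunits COX4I1, COX5A and COX5B differed by 0.14 ± 0.08, -0.01 ± 0.12 and 0.27 ± 0.11 (SE), and none passed.

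In ATP synthase, ATP5F1D, the delta subunit of the central stalk, and ATP5PD, the d subunit of the peripheral stalk, rose. ATP5F1D measured 9.83, 9.85 and 9.82 in the non-receptive and 10.16, 9.87 and 9.93 in the receptive pools of day 3. It then measured 10.26, 10.15 and 10.46 in the non-receptive and 10.19, 10.28 and 10.31 in the receptive pools of day 7. Receptive pool 1 of day 3 stood apart from the 5 other day 3 pools and slightly above the lowest pool of day 7. The difference was 0.37 ± 0.08 (SE, adjusted p = 0.018), and it passed in all 12 fits without 1 pool. Averaged with its other, dim probe set (mean 4.02, difference -0.10), the gene did not pass (0.13, adjusted p = 0.32).

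ATP5PD measured 11.54, 11.64 and 11.65 in the non-receptive and 11.79, 11.60 and 11.74 in the receptive pools of day 3. By day 7 the values were 11.98, 11.84 and 12.24 in the non-receptive and 11.98, 12.03 and 12.04 in the receptive pools. The days did not overlap. The difference was 0.36 ± 0.08 (SE, adjusted p = 0.020), and it passed in 11 of the 12 fits without 1 pool.

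In the catalytic head of ATP synthase, the alpha and beta subunits had lower means on day 7 but did not pass. ATP5F1A (alpha) and ATP5F1B (beta) differed by -0.19 ± 0.09 and -0.21 ± 0.10 (SE, adjusted p = 0.18 and 0.19). The other, dim probe sets of ATP5F1A and ATP5F1B (means 4.07 and 4.36) differed by 0.30 and -0.11 (limma adjusted p = 0.32 and 0.83). The gamma subunit ATP5F1C differed by 0.29 ± 0.10 (SE, adjusted p = 0.074). The ring of c subunits is encoded by several genes for the same mature protein. Of these, ATP5MC1 differed by -0.18 ± 0.18, ATP5MC3 by 0.08 ± 0.13 and ATP5MC2 by 0.20 ± 0.07 (SE, adjusted p = 0.067), the last without overlap of the days. ATP5IF1, the protein that inhibits the enzyme when it runs backwards, differed by 0.18 ± 0.08 (adjusted p = 0.17).

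**Figure D2:**
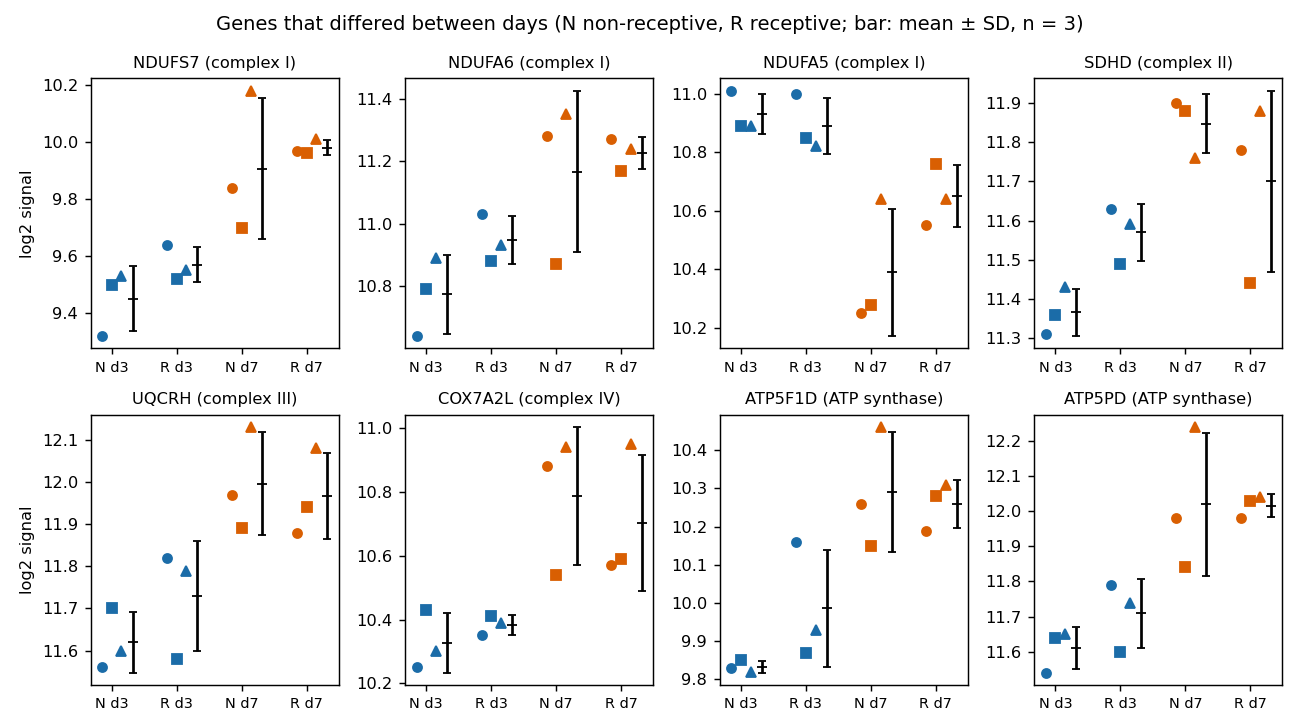
Log2 signal of the 8 genes that differed between days, in each pool (circle, square and triangle for pools 1, 2 and 3; blue day 3, orange day 7), with the mean and SD of each group of 3. The axes do not start at 0 and differ between panels. In NDUFS7, UQCRH, COX7A2L and ATP5PD all day 7 pools lie above all day 3 pools, in NDUFA5 all lie below, and in NDUFA6, SDHD and ATP5F1D the days overlap.

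The tissue isoforms of complex IV gave a mixed picture that depended on the probe set. COX8B, the isoform of subunit VIII typical of heart and skeletal muscle, was represented by a probe set at 10.14 on day 3 and 10.06 on day 7 (difference -0.09 ± 0.07, SE, adjusted p = 0.44). Its other probe set, with a mean of 6.11, measured 4.74, 5.40 and 5.16 in the non-receptive and 5.01, 4.82 and 5.35 in the receptive pools of day 3. The day 7 values were 7.21, 7.12 and 7.23 (non-receptive) and 7.03, 7.25 and 7.03 (receptive). By this probe set the days were far apart and the receptivity groups were alike to within 0.1.

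The difference by the dimmer COX8B probe set was 2.07 ± 0.13 (SE, adjusted p = 0.000197), from 5.08 ± 0.27 to 7.15 ± 0.10 (SD, n = 6 each). It was 2.04 in receptive and 2.09 in non-receptive endometrium (adjusted p = 0.0061 and 0.0043), and it passed in all 12 fits without 1 pool and in the 9 other fits that held it. It exceeded the day difference of every probe set chosen for the 81 members, of which COX7A1 had the highest, 0.70. The 2 probe sets of COX8B therefore gave incompatible answers. The identifier of the brighter one shares its cluster number with a probe set of PSMD13, a proteasome gene listed next to COX8B in RefSeq's ARS-UCD2.0 annotation. That PSMD13 probe set measured 7.82 on day 3 and 7.62 on day 7 (difference -0.20, adjusted p = 0.36). Which transcript each COX8B probe set detects was not tested.

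COX7A1, the muscle isoform of subunit VIIa, had the largest difference among the probe sets chosen, 0.70 ± 0.24 (SE), but missed the threshold (adjusted p = 0.076). It measured 7.70, 8.31 and 8.04 in the non-receptive and 8.34, 7.85 and 9.25 in the receptive pools of day 3, and 9.01, 9.20 and 8.78 in the non-receptive and 8.49, 9.21 and 9.0 in the receptive pools of day 7. Receptive pool 3 of day 3 was as high as the highest day 7 pools, and without it the difference was 0.89 (adjusted p = 0.023). This was the only 1 of the 12 fits without 1 pool in which COX7A1 passed. Without receptive pool 2 of day 3 the difference was 0.54. The ubiquitous counterpart COX7A2 differed by 0.23 ± 0.14 (SE, adjusted p = 0.31). Of 8 smooth and striated muscle markers none passed between days.

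COX6A2, the muscle isoform of subunit VIa, and COX6B2, a testis isoform of subunit VIb, were dim, at means of 3.76 and 6.17 on day 3, and differed by 0.09 ± 0.36 and 0.01 ± 0.15 (SE). Non-receptive pool 2 of day 3 read 1.99 for COX6A2 and the 11 other pools 3.59 to 4.36. Without this pool the COX6A2 difference was -0.29 (adjusted p = 0.24). NDUFA4L2, a paralog of the complex IV subunit NDUFA4 that responds to low oxygen, differed by -0.09 ± 0.09 by its brighter probe set (mean 6.07) and by 1.01 ± 0.41 by its dimmer one (mean 4.93, adjusted p = 0.13). COX4I2 was not among the genes named from the annotation used here.

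**Figure D3:**
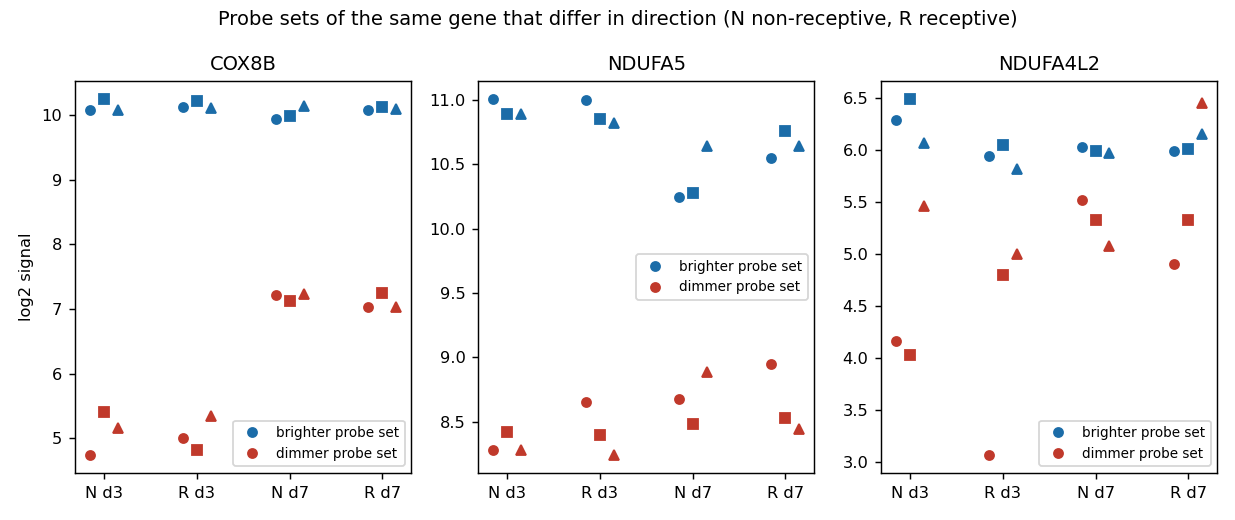
Log2 signal of the brighter (blue) and a dimmer (red) probe set of COX8B, NDUFA5 and NDUFA4L2 in each pool (circle, square and triangle for pools 1, 2 and 3). The dimmer COX8B probe set moves from 4.74 to 5.40 on day 3 to 7.03 to 7.25 on day 7 while the brighter one stays near 10.1, and the probe sets of NDUFA5 move apart in direction. Heights of different probe sets are not comparable.

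Over all members, 20 genes had further probe sets, 22 in number. Of these, 19 had a mean signal below 8, and 7 of the 22 had the sign of the probe set chosen in the averaged day contrast. Of the 3 brighter ones 2 had the same sign: for ATP5MG, a membrane subunit of ATP synthase, 0.40 against 0.15 (adjusted p = 0.029 against 0.32), and for NDUFB2 of complex I 0.37 against 0.16. The third was that of NDUFA5. Just below this signal, at a mean of 7.81, the other probe set of UQCRC2 differed by -0.26 (adjusted p = 0.056) without overlap of the days. The one chosen for UQCRC2 differed by 0.14 (adjusted p = 0.31).

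Taken separately, neither receptivity group gave a called member. In receptive endometrium 64 of 81 differences between days were positive with a median of 0.13 (-0.06 over all probe sets), and in non-receptive endometrium 71 were positive with a median of 0.20 (-0.05). With limma, 0 members passed an adjusted p under 0.05 in either, where 1.96% and 2.48% of all probe sets did. At an unadjusted p under 0.05 there were 8 members (9.88%) in receptive and 17 (21.0%) in non-receptive endometrium, beside 20.4% and 20.5% of all probe sets. The median of receptive endometrium was 0.05 without pool 2 and 0.20 without pool 1 of day 3, and that of non-receptive endometrium was 0.09 without pool 3 and 0.32 without pool 2 of day 7. The groups share no pools, and 62 genes were higher on day 7 in both, 8 lower in both and 11 of opposite sign.

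The change with the day did not differ detectably by receptivity. In the interaction 0 members passed (limma), as did 0% of all probe sets, and 1 member passed an unadjusted p under 0.05 (1.23%, beside 3.39%). The median of the interaction was -0.09 (-0.01 over all probe sets), with 63 of 81 genes negative, but it was 0.04 without pool 3 of non-receptive day 7 endometrium and -0.18 without pool 2 of that group. That member was NDUFA4L2, at 0.40 ± 0.17 (SE, limma adjusted p = 0.999). The most negative values were COX6A2 at -0.69 ± 0.73, which includes the low reading of 1 pool given above, COX7A1 at -0.56 ± 0.47, NDUFB6 at -0.54 ± 0.27 and SDHD at -0.35 ± 0.17 (SE, adjusted p = 0.999 each). With 3 pools per group, an interaction of the size seen here was within the spread of the pools.

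The subunit genes moved together from pool to pool, over and above the groups. For each gene the mean over the 12 pools was subtracted and the median over the 81 genes was taken in each pool. It was -0.18, -0.14 and -0.07 in pools 1, 2 and 3 of non-receptive day 3 endometrium, and 0.10, -0.15 and -0.03 in those of receptive day 3 endometrium. On day 7 it was 0.07, -0.17 and 0.32 in the non-receptive pools and 0.13, 0.05 and 0.10 in the receptive pools. The non-receptive pools of day 7 thus spread the most of the 4 groups, and the receptive pools of day 7 lay close together (mean 0.09 ± 0.04, SD, n = 3, against 0.07 ± 0.24).

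The same pools stood out in complexes I, III and IV and in ATP synthase, and complex II, with 4 genes, departed from them in some pools. In pools 1 and 2 of non-receptive day 3 endometrium complex II was the lowest, at -0.29 and -0.24. In pool 3 of non-receptive day 7 endometrium 75 of the 81 genes were above their mean, and the medians of complexes I, III and IV and ATP synthase were 0.30 to 0.35, where that of complex II was 0.15. In pool 2 of the same group the former were -0.20 to -0.14 and complex II stood at -0.03. In pool 2 of receptive day 3 endometrium 4 of 81 genes were above their mean. Over the same pools the median of all bright probe sets (mean signal at least 10) moved between -0.04 and 0.04 only.

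**Figure D4:**
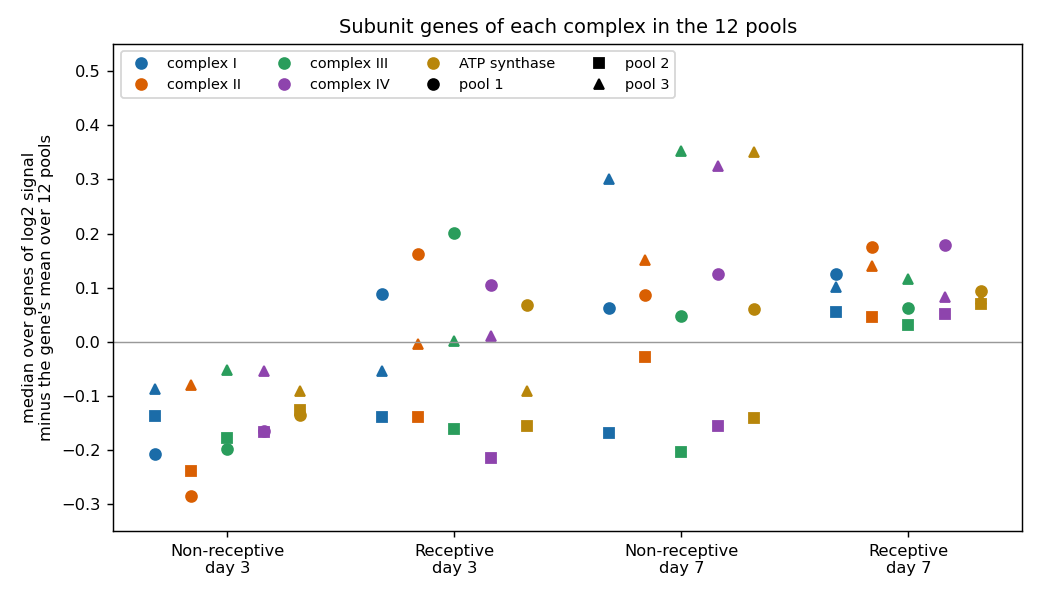
Median over the genes of each complex of the log2 signal, centred on the 12-pool mean of each gene, by group (colours for complexes, circle, square and triangle for pools 1, 2 and 3). Complexes I, III and IV and ATP synthase mostly lie close together within a pool. Complex II (4 genes) departs from them in non-receptive day 7 pools 2 and 3 and is lowest in non-receptive day 3 pools 1 and 2. The non-receptive day 7 pools spread from -0.20 to 0.35, and pool 2 is low in 3 of the 4 groups.

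Poly-A spike-in control transcripts were brightest in 3 pools with a low members' median. The pool with the lowest median, pool 1 of non-receptive day 3 endometrium, was not among them. The poly-A spike-in transcripts, which are added to the RNA before labelling, had a mean log2 signal of 7.40 to 7.54 in pool 2 of both day 3 groups and of non-receptive day 7 endometrium, and of 6.33 to 6.91 in the 9 other pools. In these 3 pools the members' median was -0.17 to -0.14, and in the others -0.18 to 0.32. Another kind of control, the hybridisation controls, had means of 10.15 and 9.94 in pool 2 of non-receptive and receptive day 3 endometrium. In pool 2 of non-receptive day 7 endometrium their mean was 10.09, and in the 9 other pools it was 9.33 to 9.95. The part of array scale in these pools was not tested. Without the 3 pools, the median day difference of the members was 0.20 (63 of 81 positive) and 3 members passed in place of 8. With the spike-in mean as a covariate it was 0.11 (55 positive), again with 3 members called. The spike-in mean itself did not differ detectably between days (difference -0.33, two-sided exact permutation p = 0.19 over 400 assignments) or with receptivity (-0.29, exact p = 0.23).

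No subunit gene passed the test between receptive and non-receptive endometrium. On day 3, 71 of 81 genes had a higher mean in receptive endometrium, with a median of 0.10 (-0.01 over all probe sets). No member passed (0 of 81, limma adjusted p under 0.05), as 0.0125% of all probe sets did, and 2 members (2.47%) passed an unadjusted p under 0.05, beside 5.26%. These 2 were NDUFB6, an accessory subunit of the membrane arm of complex I, at 0.43 ± 0.19 (SE), and NDUFA4L2 at -0.35 ± 0.12 (SE), both with a limma adjusted p of 0.94.

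The day 3 difference of NDUFB6 itself rested on pools 1 and 3 of receptive endometrium. This gene measured 10.24, 10.41 and 10.43 in the non-receptive and 11.02, 10.31 and 11.04 in the receptive pools of day 3. Pools 1 and 3 of receptive endometrium were high and pool 2 was among the non-receptive values. On day 7 it measured 11.06, 10.82 and 11.20 in the non-receptive and 10.93, 10.82 and 10.99 in the receptive pools, a difference of -0.11, with the groups overlapping.

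NDUFA4L2 measured 6.29, 6.49 and 6.07 in the non-receptive and 5.94, 6.05 and 5.82 in the receptive pools of day 3, without overlap. On day 7 it measured 6.03, 5.99 and 5.97 in the non-receptive and 5.99, 6.01 and 6.15 in the receptive pools, and the groups overlapped. By its dimmer probe set the day 3 difference was -0.26 ± 0.58 (SE), with no call.

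The complexes had like medians for the day 3 difference, 0.10 in complex I, 0.19 in complex II, 0.13 in complex III and 0.09 in complex IV and in ATP synthase. The members with the smallest p in the other complexes were far from the threshold. In complex II these were SDHC, 0.22 ± 0.14 (SE), and SDHD, 0.20 ± 0.12, in complex III UQCRFS1, 0.28 ± 0.17, and CYC1, 0.19 ± 0.17. In complex IV, after NDUFA4L2, the muscle isoform COX7A1 stood at 0.46 ± 0.33, and in ATP synthase ATP5F1D at 0.15 ± 0.11 and ATP5F1B at 0.16 ± 0.14 (SE, adjusted p = 0.94 to 0.96). NDUFB5, an accessory subunit of complex I, stood at 0.25 ± 0.16 (SE, adjusted p = 0.94).

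The day 3 pools overlapped in the members' median too, which was -0.15 to 0.10 in receptive and -0.18 to -0.07 in non-receptive pools. Actin control probe sets at the 3' and 5' ends of its transcript differed by a gap that was wider in receptive endometrium. Such gaps are commonly read as a check on RNA quality, and its part in the results was not tested. The actin gap was 1.05 to 3.11 in receptive and 0.48 to 0.93 in non-receptive pools on day 3, and 0.82 to 1.25 against 0.02 to 0.63 on day 7 (difference 0.998 over both days, two-sided exact permutation p = 0.005, the smallest possible, adjusted p = 0.05 over 10 comparisons). The pool with the largest gap, pool 1 of receptive day 3 endometrium, was also the highest day 3 pool in the members' median, and without it the median difference was 0.03. With the actin gap as a covariate, the median difference of the members on day 3 was -0.15, with 10 of 81 genes positive. The gap did not overlap between receptive and non-receptive pools on either day. This fit therefore cannot tell the gap and receptivity apart, and the change of sign is no result about receptivity. The corresponding gaps of GAPDH, cyclophilin and EF1A did not differ detectably with receptivity (exact permutation p = 0.93, 0.33 and 0.17). Between days the actin gap differed by -0.62 (day 7 minus day 3, exact permutation p = 0.065, adjusted p = 0.325). The gaps of GAPDH, cyclophilin and EF1A differed between days by -0.08, -0.08 and 0.24 (exact permutation p = 0.5, 0.345 and 0.165).

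On day 7 the members were centred near 0. The median was 0.01 (-0.02 over all probe sets), with 47 genes higher and 31 lower in receptive endometrium and 3 at equal means. No member passed (limma), and neither did any probe set (0%). At an unadjusted p under 0.05 there were 0 members as well, beside 5.81% of all probe sets. Single pools decided this median. It was 0.14 when pool 3 of non-receptive endometrium was left out, and -0.09 when pool 2 of the same group was.

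In complex I the members with the smallest p on day 7 were NDUFA5, 0.26 ± 0.13 (SE, adjusted p = 0.82), and NDUFB11, an accessory subunit, 0.18 ± 0.14 (adjusted p = 0.85). In complex II they were SDHD, -0.15 ± 0.12, and SDHC, 0.15 ± 0.14, and in complex III the core protein UQCRC1, 0.08 ± 0.16, and UQCRB, -0.08 ± 0.16 (SE). In complex IV they were COX4I1, 0.15 ± 0.11, and COX5B, 0.12 ± 0.16, and in ATP synthase ATP5MC2, 0.08 ± 0.09, and ATP5F1C, -0.12 ± 0.13 (SE). All of these had an adjusted p between 0.82 and 0.95.

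Averaged over days, 68 of 81 genes were higher in receptive endometrium with a median of 0.07 (-0.01 over all probe sets). There were 0 called members (limma), as 0.00416% of all probe sets passed, and 0 members at an unadjusted p under 0.05, beside 7.38%. With the actin gap as a covariate, which cannot be told apart from receptivity here, this median was -0.11. It was 0.0058 without pool 2 of non-receptive day 7 endometrium.

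**Figure D5:**
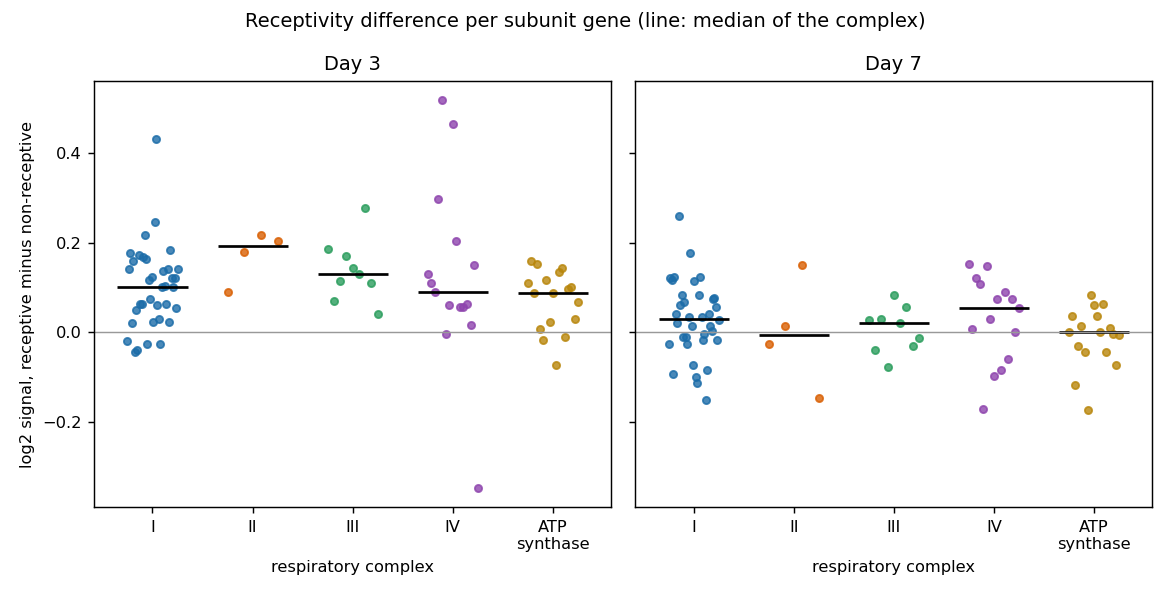
Difference in log2 signal between receptive and non-receptive endometrium on day 3 (left) and day 7 (right), 1 point per gene by complex, with the median of each complex as a line. On day 3 the medians lie between 0.09 and 0.19 and on day 7 between -0.01 and 0.05, and no gene passed on either day.

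Other genes that serve the same pathway passed the test between days in part, in shares to be read against the 4.76% of all probe sets called higher, the 9.44% called lower and the median of -0.05 over all of them. No list was tested against these or against the subunits. Of 9 measured assembly factors of complex I, 2 were positive on day 7 (median -0.03), and TMEM126A and ACAD9 fell by 0.34 and 0.49 (adjusted p = 0.023 and 0.035), which is 22.2% of the list. Of 21 assembly factors of complexes II to V, 14 were positive (median 0.12) and COA4, a factor for complex IV, rose by 0.38 (adjusted p = 0.041), or 4.76% of the list.

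Among 19 genes of electron carriers and fuel transport, 2 (10.5%) were called in each direction (median 0.03). COQ5, a methyltransferase of ubiquinone synthesis, and ETFA, which carries electrons from fatty acid oxidation, rose by 0.37 and 0.35 (adjusted p = 0.015 and 0.016). PDSS1 and COQ2, which make and attach the ubiquinone tail, fell by 0.54 and 0.31 (adjusted p = 0.034 and 0.047). Genes of ubiquinone synthesis thus moved in both directions.

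Of 21 genes of the tricarboxylic acid cycle and pyruvate entry, 15 were positive (median 0.15) and 3 (14.3%) rose. Pyruvate carboxylase, PC, differed by 0.91, from 7.89 to 8.58 on day 3 to 8.73 to 9.27 on day 7 (adjusted p = 0.0052). SUCLG2, a subunit of succinyl-CoA ligase, rose by 0.41 from 11.16 to 11.41 to 11.57 to 11.76 (adjusted p = 0.0071). MPC1, a subunit of the mitochondrial pyruvate carrier, rose by 0.84 (adjusted p = 0.047), with wide day 7 values of 8.27 to 9.99.

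Mitochondrial ribosomal proteins, which translate the subunits encoded by mitochondrial DNA, had a median of 0.14, with 53 of 68 measured genes positive. Of these 68, 8 (11.8%) rose and 2 (2.94%) fell, a total of 14.7% that is near the 14.2% of all probe sets. MRPL50, MRPL43 and MRPS15 rose by 0.44, 0.47 and 0.43 (adjusted p = 0.011, 0.015 and 0.018), and MRPL15 fell by 0.53 (adjusted p = 0.016).

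Of 16 measured regulators of mitochondrial gene expression, 12 were negative (median -0.17), 5 (31.2%) fell and 0 rose. TFB2M and TFB1M, the mitochondrial transcription factor and its relative that methylates mitochondrial ribosomal RNA, fell by 0.33 and 0.31 (adjusted p = 0.011 and 0.013). PPRC1, a coactivator of nuclear genes for mitochondria, fell by 0.82 (adjusted p = 0.016) and the deacetylase SIRT1 by 0.36 (adjusted p = 0.031).

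Of 19 genes of glycolysis, 2 (10.5%) rose and 2 fell (median 0.04). The glucose transporter SLC2A1 rose by 1.46 and the aldolase ALDOC by 0.55 (adjusted p = 0.035 and 0.015), and the enolase ENO2 and the phosphofructokinase PFKL fell by 0.56 and 0.28 (adjusted p = 0.045 and 0.047). Of 28 genes of mitochondrial dynamics and import, 2 (7.14%) rose and 1 (3.57%) fell (median -0.02). These were FIS1, an outer membrane protein of fission, at 0.58, the protease CLPP at 0.36 and the chaperonin HSPD1 at -0.31 (adjusted p = 0.017, 0.024 and 0.038). Of 12 antioxidant and uncoupling genes, 9 were positive (median 0.20) and UCP2 and GLRX2 (16.7% of the list) rose by 0.71 and 0.48 (adjusted p = 0.012 and 0.018). A list of subunits named outside the symbol rule held 1 measured gene that was no member, DMAC2L, at 0.07. No gene of these lists passed between receptive and non-receptive endometrium on day 3 or day 7.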

How the data were processed

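The authors deposited 1 table of log2 signals for 24128 probe sets on 12 Affymetrix bovine arrays, with biotin-labelled cRNA from 1 RNA pool each. Affymetrix Expression Console, PLIER and GCOS 1.1.1 are named in the submitters' processing notes. How arrays were scaled to each other is not given there. Values lay between 0 (a floor) and 14.06, and no member was at the floor.

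The values were used as deposited. The 112 control probe sets were left out, and a mean for each of 4 groups was fitted to all 24016 others with limma 3.58.1 (R 4.3.3, lmFit, contrasts.fit and eBayes). There were 7 contrasts, all tested two-sided, with a call at a Benjamini-Hochberg adjusted p under 0.05. Genes were named from GEO's platform annotation where a probe set had exactly 1 symbol (13292 probe sets, 86 with several, 10638 with none). No pools were identical (highest correlation 0.971). The number of arrays limits the precision.

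Genes were named if called in any contrast, if among the 2 smallest p of their complex in the averaged day contrast, either receptivity contrast of 1 day or the interaction, or if a tissue isoform, paralog or regulator of a subunit. In other lists up to 4 called genes were named. NDUFS5, NDUFA2, NDUFB4, core subunits and genes set beside a named one were added after their values were seen. Members and lists were chosen with earlier results of these data known. Alternatives were other scalings, filters, variance models, a pool block, all probe sets of a gene and leaving out pools. Omission of 3 pools and both covariates were chosen after seeing the data. The model was tested on simulated data.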

Additional observations from a re-analysis of the deposited data

How the results depend on the processing

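Of the results above, the count of called members was the least stable. For the averaged day contrast (8 members), it was 14 with arrays centred on their medians, 16 without the lowest 30% of signals, 16 with a trended, robust variance, 3 without the 3 pools of high spike-in signal, 3 with the spike-in mean and 16 with the actin gap as a covariate, and 2 to 20 without 1 pool (lowest without pool 1 of non-receptive day 3, highest without pool 2 of non-receptive day 7 endometrium). For non-receptive endometrium (0), it was 1 with quantile normalization, 1 without floor values, 3 without low signals, 5 with the trended variance, 1 with all probe sets of a gene, 2 with the actin gap and 0 to 1 without 1 pool, and for receptive endometrium (0) it was 1 with all probe sets of a gene. The other 4 counts were 0 in all alternatives run. The median of the averaged day contrast stayed positive (0.11 to 0.27). With the actin gap as a covariate the medians were -0.15 (receptivity, day 3), -0.11 (averaged over days) and 0.30 (day change, receptive). Receptivity differences fitted with the gap cannot be told apart from the gap itself, which did not overlap between receptivity groups on either day. The interaction was -0.26 without the 3 pools of high spike-in signal. With pool number as a replicate block, 6 members were called for the averaged day contrast, and NDUFA6 and SDHD missed the threshold (adjusted p = 0.052 and 0.060). Of 18 pairs of pools with equal numbers, 3 correlated over 0.1 in their deviations. Such pairs ran from -0.18 to 0.14 and pairs with unlike numbers from -0.15 to 0.15. With 3 pools per group these correlations cannot show whether equal numbers mark paired pools. The signs of some uncalled values turned. With all probe sets averaged, COX8B was 0.99, NDUFA4L2 0.46, UQCRC1 -0.015 (day 7) and the ATP5F1D interaction 0.01. For the day 7 receptivity difference, UQCRC1 was -0.0267, -0.0238 and -0.0505 without the 3 pools, with the spike-in mean and with the actin gap, and -0.0267 to 0.26 without 1 pool. COX5B was -0.0126 with the spike-in mean and -0.0442 with the gap, and UQCRB -0.17 to 0.0317 without 1 pool. For the day 3 receptivity difference with the gap, NDUFB5 was -0.0377, UQCRFS1 -0.0824, CYC1 -0.17, ATP5F1D -0.0404 and ATP5F1B -0.15. For the averaged day contrast, COX6A2 was -0.16 without the 3 pools, -0.15 with the spike-in mean and -0.29 to 0.31 without 1 pool, and COX6B2 -0.0058, -0.18 and -0.09 to 0.12. The cause of these changes was not tested.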
